A study of Cyprinus carpio 'koi' with 9 samples.

Results

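Among the 446614 assembled genes measured in koi carp skin, 2 were examined here, TRINITY_DN160804_c0_g1 (DN160804 hereafter) and TRINITY_DN158633_c2_g1 (DN158633 hereafter). Both were selected on their levels in the black skin libraries, raised in earlier results of these data, and on the study's term tables, which place them under melanosome. Hence every comparison with black skin is given below as a description with no test. Only red against white skin is tested, and the study's term tables for that comparison were made on these same libraries, so the test is no independent evidence.

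The 9 poly(A) RNA-seq libraries came from skin of koi carp of the FFRC strain, with 3 libraries each of black (BS), red (RS) and white (WS) skin, numbered 1 to 3 within each color. All groups share the strain, the tissue and the same rearing in a circulating water system, and no group received a treatment other than anaesthesia at sampling. The fish carried black, red and white patches together, and no age was given in the labels. Whether equally numbered libraries came from the same fish was not stated outright, and p-values measure only the spread between these samples.

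Fish skin color arises from pigment cells, and the dark ones are melanophores, which make melanin inside organelles called melanosomes. Tyrosinase catalyses the first steps of melanin synthesis, and tyrosinase-related protein 1 (Tyrp1) acts in the same pathway. Melanosomes are built in steps in the cell and can be moved along its cytoskeleton, so genes annotated to melanosome can act in pigment synthesis, in organelle assembly or in transport.

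The study's tables gave neither gene a gene name. DN160804 was listed under melanosome, melanosome organization, eye pigmentation, membrane, integral component of plasma membrane, ion binding and metal ion binding, in all 3 color comparisons. DN158633 was listed under melanosome, DNA binding, zinc ion binding, ATP-dependent helicase activity, apical plasma membrane and regulation of transcription in the 2 comparisons with black skin. Melanosome transport and fin regeneration were added for it in BS against WS only. A KEGG orthology entry was paired with DN158633 alone, that of CHD4, a helicase of the NuRD chromatin remodelling complex in vertebrates. DN160804 had no KEGG entry. The 2 genes thus shared the term melanosome and no other term. DN160804 comprised 8 assembled isoforms and was the only gene of its read cluster, the set of reads that Trinity assembled together. DN158633 comprised 12 isoforms and shared its cluster with 1 other gene. No other assembled gene had the same counts as either of them in every library.

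The total expected count, RSEM's estimate of the read pairs assigned to assembled genes, was 13773868 to 25002494 per library. TMM factors, which adjust for library composition, ranged from 0.474 to 1.41, and the most abundant gene took 23.4% of the counts in BS2. A gene with 3 counts, used here as the detection floor, corresponds to 0.102 to 0.385 TMM-adjusted CPM (counts scaled to a fixed library total), depending on the library, and this floor covers counting error only. Melanophore marking was described with 5 genes of the study's KEGG table. It lists 2 of them alone under tyrosinase. The other 3 are those left to its Tyrp1 entry, and that label was assigned here. The summed CPM of the 5 genes was 26.1, 163 and 16.0 in BS1, BS2 and BS3. It was 1.54 to 9.42 in RS and 0.199 to 2.51 in WS, so the sum was highest in the black libraries. The study listed these genes because they changed between colors in these same libraries, so nothing is read from this order. Most of the sum came from the 3 Tyrp1 genes. The 2 tyrosinase genes alone summed to 1.71, 11.2 and 1.11 in BS1, BS2 and BS3. In RS they summed to 0.385 to 2.64, so that black and red overlapped. In bulk skin, fewer cells of a type and less RNA per cell cannot be told apart. The 1 gene described as a keratin, an epithelial protein, was at or near 0 everywhere and gave no check of the epithelium.

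DN160804 was found in black skin, in 1 red library and at or near 0 in white skin. Its level in FPKM, the fragment count adjusted for length and depth, was 1.55, 79.55 and 2.12 in BS1, BS2 and BS3. In red skin it was 12.96 in RS2 and otherwise 0. It was 0, 0.01 and 0 in WS1, WS2 and WS3. All black libraries lay above all white libraries, whereas the red library of number 2 lay above the black libraries of numbers 1 and 3, so that red overlapped with both other colors. Mean FPKM was 27.7 ± 44.9 (SD, n = 3) in BS and 4.32 ± 7.48 (SD, n = 3) in RS, and both SDs exceeded their means because 1 library held most of the signal.

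The counts show how few libraries carried DN160804. Expected counts were 35.84, 3636.14 and 54.42 in BS1, BS2 and BS3 and 383.78 in RS2. The other 5 libraries held 0.19 counts in WS2 and otherwise 0. Of the 4110.37 counts of this gene over all libraries, 97.8% came from the libraries numbered 2. Among the 78848 genes kept over all 9 libraries by the filter on low counts, 0.0482% were likewise under 3 counts in those 5 libraries. A gene that low there can pass the filter only through the black libraries and RS2, so nothing is read from this share. The highest CPM of all libraries was in BS2 for 15.5% of the 78848 genes, and BS2 ranked first with RS2 second for 7.25%.

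**Figure D1:**
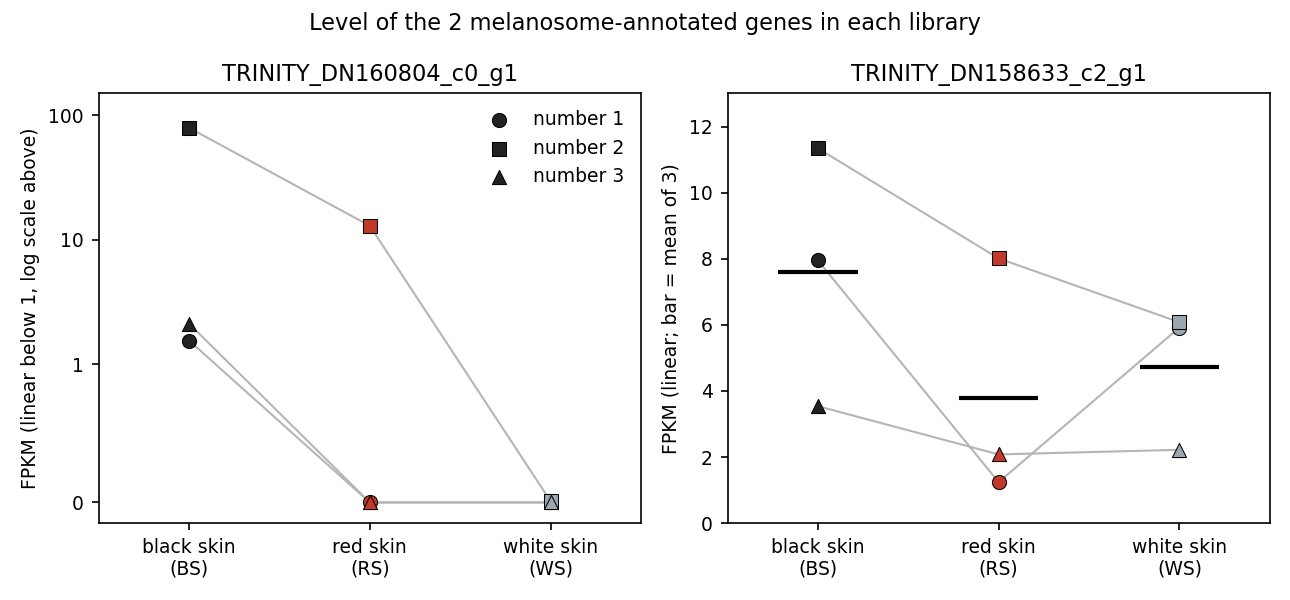
FPKM of TRINITY_DN160804_c0_g1 (left, linear below 1 and log scale above) and TRINITY_DN158633_c2_g1 (right, linear, bars are means of 3 libraries) in black, red and white skin, with grey lines joining libraries of the same number. TRINITY_DN160804_c0_g1 reaches 79.55 in BS2 and 12.96 in RS2 and is at or near 0 in the other red and white libraries, whereas TRINITY_DN158633_c2_g1 lies between 1.24 and 11.34 in all 9.

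DN160804 was highest in black skin within each number. Against the floor of 3 counts per library, CPM was at least 16.8-fold higher in BS than WS for number 1, at least 1645-fold for number 2 and at least 15.7-fold for number 3. BS exceeded RS by at least 8.85-fold for number 1 and at least 13.2-fold for number 3, and by 12.8-fold for number 2, where both libraries had counts. By FPKM the latter ratio was 6.14. The direction was therefore shared by the 3 numbers, while the size in white could be bounded but not measured. Within black skin, BS2 was 49.4 times BS1 and 72.1 times BS3 in CPM, a spread wider than the black to red ratio of number 2.

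Whether red differed from white in DN160804 rested on 1 library. In number 2, CPM was at least 128-fold higher in RS than in WS. In numbers 1 and 3 both colors were under the floor, and no fold was taken. The gene did not pass the count filter for RS against WS, so that it had no quasi-likelihood test there. Without that filter it was 1 of 346 genes called among 279939 (log2 difference 9.46, SE 1.60, FDR = 1.39e-05 by edgeR's quasi-likelihood test). That call rested on RS2, the only red or white library above the floor. The fit of all 9 libraries gave 9.44 with an SE of 3.88. The gene passed the filter of that fit only with the black libraries, whose levels chose it. No test of red against white is therefore read from that fit. The exact permutation test of mean FPKM gave a difference of 4.32 (two-sided p = 1, n = 3 per color). The smallest p this design allows is 0.1, but these values could not reach it. With nearly all FPKM in 1 library, every relabelling gives nearly the same absolute difference, so nothing is concluded from this p. Without number 2 the difference was 0.

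In RS against BS, the quasi-likelihood fit of edgeR put DN160804 at a log2 difference of -3.70 (SE 2.57). This value depended on the libraries numbered 2. It was 0.74 without BS2, -12.92 without RS2 and -8.37 without both, the latter pair resting on red libraries at 0, where the fitted size depends on the prior count.

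DN158633 was detected in every library and varied much less. Its FPKM was 7.95, 11.34 and 3.54 in BS1, BS2 and BS3. In red skin it was 1.24 to 8.01, with the highest value in RS2. It was 5.92, 6.08 and 2.22 in WS1, WS2 and WS3. Within each number black skin had the highest value, while the ranges of the 3 colors overlapped, since BS3 lay below WS1, WS2 and RS2. The means were 7.61 ± 3.91 in BS, 4.74 ± 2.18 in WS and 3.78 ± 3.69 in RS (SD, n = 3 each), and neighbours in this order overlapped within 1 SD. These SDs include the differences between numbers and take no account of the pairing.

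Expected counts of DN158633 were 156.1, 338.68 and 79.94 in BS1, BS2 and BS3. They were 40.8 to 186.11 in red skin, highest in RS2, and 106.97, 220.77 and 57.08 in WS1, WS2 and WS3. Number 2 held 60.5% of them. Of the 78848 genes, 23.2% had their highest CPM in number 2 in each color, as DN158633 did. DN160804 did so as well, but in white skin this rested on 0.19 counts in WS2, under the floor.

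CPM of DN158633 in BS was 2.05, 2.08 and 1.21 times that in WS for numbers 1, 2 and 3, a mean log2 ratio of 0.79 ± 0.45 (SD, n = 3). Against RS the ratios were 2.84, 2.46 and 1.26, a mean log2 ratio of 1.04 ± 0.63 (SD, n = 3). By FPKM the ratios to WS were 1.34, 1.87 and 1.59 and those to RS 6.41, 1.42 and 1.70. The direction was shared by all numbers on both scales, whereas the size and the order of the numbers changed with the scale. Black skin was the highest of the 3 colors within each number for both genes on both scales, as it was for 3.34% of the 78848 genes by CPM and 1.04% by FPKM. The genes were chosen for being raised in black skin, and nothing is read from these shares. In the fits without pairing, the log2 difference was 0.95 (SE 0.72) for BS against WS and -1.23 (SE 0.70) for RS against BS.

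Between red and white skin, DN158633 differed by less than the spread between libraries of a color, which includes the differences between numbers. By CPM, RS was 0.722, 0.847 and 0.961 times WS in numbers 1, 2 and 3, a mean log2 ratio of -0.26 ± 0.21 (SD, n = 3), whereas by FPKM the ratios were 0.209, 1.32 and 0.937 and only numbers 1 and 3 were lower in red. RS below WS in each number held for 13.2% of the 78848 genes by CPM, and for 20.2% by FPKM, where DN158633 was not among them. The quasi-likelihood test gave a log2 difference of -0.30 (SE 0.61, FDR = 1 by edgeR's quasi-likelihood test over 66740 genes). The exact permutation test of mean FPKM gave a difference of -0.96 (two-sided p = 0.8, n = 3 per color), which became 0.895 without number 1. Both of these tests take no account of the pairing. With the numbers as a block (the replicate block), the log2 difference was -0.25 (SE 0.30).

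In none of the 3 comparisons did the quasi-likelihood test of edgeR call a gene at an FDR of 0.05 and an absolute log2 difference of 1, which is 0% of 66740 genes for RS against WS, 0% of 65727 for RS against BS and 0% of 68812 for BS against WS. Before adjustment, 271, 216 and 262 genes had a p under 0.05 in this test. With the replicate block the counts were 1089, 1247 and 1364, again with no gene called. All of these lie below the share of 0.05 of tested genes that would be expected if no gene differed. The absence of calls therefore does not show that the colors are alike. DESeq2 called 57, 33 and 43 genes and the exact test of edgeR 49, 21 and 43. In RS against WS, DN158633 was not called by any of them. For BS against WS by FPKM, DN160804 was one of the 0.522% of genes with all black libraries above all white ones, and DN158633 was not. Neither gene was among the 0.942% with all red libraries below all black ones. As both genes were chosen for being raised in black skin, nothing is read from these shares.

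The length behind the FPKM of DN158633 also varied, because RSEM weights the isoforms anew in each library. Effective length was 1125 bp in RS2 and 1576 bp in WS2, and it was 1194 to 1325 bp in the 3 black libraries against 1125 to 2002 bp in the 3 red ones, the widest range of the colors. CPM takes no account of length, and RS2 against WS2 changed direction between the scales. Scales without the TMM factors also shifted the median over all genes tested. The median log2 difference for RS against WS and BS against WS was -0.27 and -0.27 by FPKM. It was -0.27 and -0.26 by CPM without the TMM factors, and -0.04 and -0.02 by TMM-adjusted CPM. FPKM thus differs from TMM-adjusted CPM both in length and in these factors. Relative to the FPKM medians, the log2(FPKM + 1) differences of DN158633 were -0.18 and 0.82, and those of DN160804 were 1.53 and 3.37.

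The neighbour of DN158633 in its read cluster, TRINITY_DN158633_c2_g2, comprised 3 isoforms and was ordered differently. Its FPKM was 3.69, 9.11 and 3.77 in BS1, BS2 and BS3. It was 2.87 to 27.40 in red skin, highest in RS2, and 3.53, 7.60 and 2.47 in WS1, WS2 and WS3. By CPM it was higher in RS than in WS in all 3 numbers (mean log2 ratio 1.04 ± 0.15, SD, n = 3) and lower in BS than in RS in all 3 numbers (-0.41 ± 0.30, SD, n = 3), whereas these directions did not hold in every number by FPKM, nor did RS above WS by CPM without the TMM factors.

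Genes of 1 read cluster can share sequence, and the counting could split reads between them, so DN158633 is uncertain to that extent. When the counts of both genes of the cluster were summed, BS remained above WS in all 3 numbers (mean log2 ratio 0.78 ± 0.24, SD, n = 3) and above RS in all 3 numbers (0.52 ± 0.36), although without the TMM factors BS2 was below RS2. RS against WS turned to 0.26 ± 0.23, with RS higher in 2 of the 3 numbers. The lower level in red than in white therefore held for DN158633 by itself and not for the cluster, and the black to red ratio was smaller for the cluster.

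**Figure D2:**
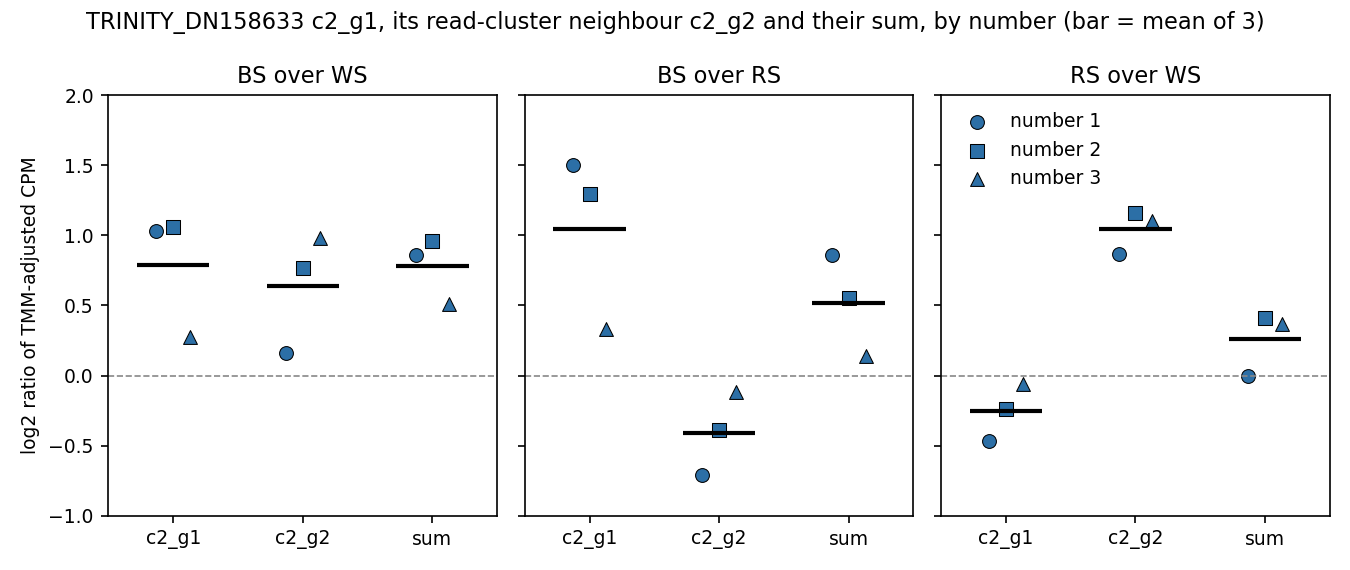
Log2 ratio of TMM-adjusted CPM between colors within each number (circle, square and triangle for numbers 1, 2 and 3, bars for means of 3) for TRINITY_DN158633_c2_g1, the other gene of its read cluster and the sum of both. Black over white lies above 0 for all 3, whereas black over red is 1.04 for the former gene and -0.41 for the latter on average.

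Of the genes annotated by the study, 3 shared melanosome, melanosome organization and eye pigmentation with DN160804. TRINITY_GG_163435_c1_g1 had FPKM of 1.18, 20.50 and 1.03 in BS1, BS2 and BS3 and 1.77 in RS2. TRINITY_GG_93899_c19_g1 had 0, 15.69 and 2.28 in BS1, BS2 and BS3 and 2.48 in RS2. These 2 followed DN160804 in being highest in BS2, with RS2 the only red library above 0. TRINITY_GG_163448_c1_g1 differed, with 0.86, 0.54 and 1.02 in BS1, BS2 and BS3 and 0 in all red libraries. The summed CPM of the 3 genes was 2.68 to 35.7 in BS, 0 to 2.01 in RS and 0 to 0.171 in WS.

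The level of DN160804 relative to these genes was not constant. Its FPKM was 1.31, 3.88 and 2.06 times that of TRINITY_GG_163435_c1_g1 in BS1, BS2 and BS3 and 7.32 times in RS2. It was 1.80 and 2.08 times that of TRINITY_GG_163448_c1_g1 in BS1 and BS3 but 147 times in BS2. BS2 thus stood above BS1 and BS3 by more in DN160804 than in either of these genes.

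In the black libraries the tyrosinase genes had lower levels than DN160804, whereas the Tyrp1 genes did not all do so. TRINITY_GG_98757_c0_g1 had FPKM of 0.16, 2.88 and 0.03 in BS1, BS2 and BS3, 0.13 in RS2 and 0 in WS. TRINITY_GG_118902_c0_g1 had 0.63, 3.96 and 0.96 in BS, 0.13, 2.62 and 1.20 in RS and 0 to 0.10 in WS. The latter was present in all red libraries, where DN160804 was found in RS2 alone, and RS2 and RS3 lay above BS1 and BS3. Thus BS2 was the highest library of both tyrosinase genes and of DN160804, while RS3 held TRINITY_GG_118902_c0_g1 and no DN160804. In BS1, BS2 and BS3, the Tyrp1 gene TRINITY_GG_142711_c33_g1 had FPKM of 7.12, 44.98 and 8.53. TRINITY_DN162538_c5_g1 had 3.03, 32.83 and 2.96. Both lay above DN160804 in BS1 and BS3 and below it in BS2. TRINITY_GG_132409_c0_g1 had 0.32, 8.26 and 0, below DN160804 in each. The part of melanophore content or of the number 2 libraries in the levels of DN160804 was not tested.

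**Figure D3:**
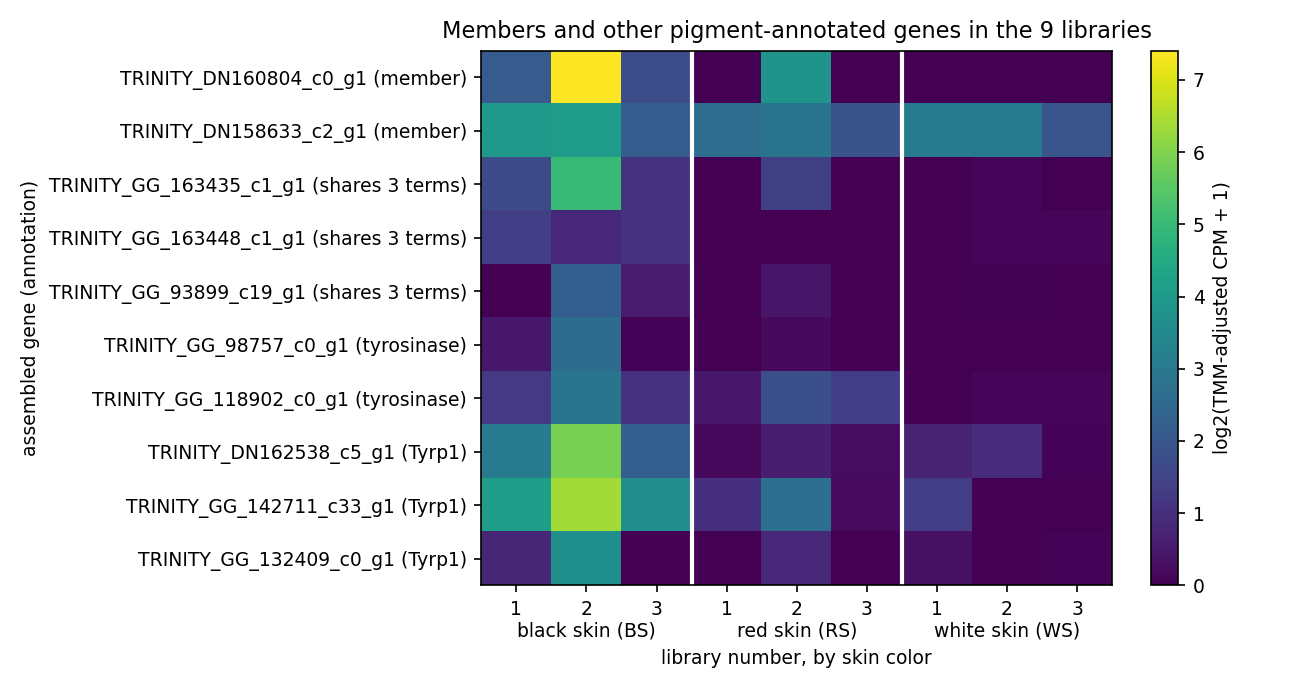
Log2(TMM-adjusted CPM + 1) of the 2 genes described, the 3 genes sharing terms with TRINITY_DN160804_c0_g1, 2 tyrosinase genes and 3 Tyrp1 genes (rows) in the 9 libraries (columns, color and number). The brightest cells lie in BS2, and TRINITY_DN158633_c2_g1 is the only row above 1 on this scale in every library.

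Over the 8 pigment terms of the study, 32 genes were listed, including both described here, and the study chose them on these libraries. In BS against WS, 18 were tested and all 18 had a positive log2 difference (median 4.09, against 0.01 over all genes tested). With the replicate block 17 of 18 were positive, and without number 2, 14 of 15. Of the 30 listed genes other than the 2 described here, 23 to 29 reached 3 counts in the black libraries and 9 to 12 in the white ones. In RS against BS, 23 were tested and 12 were higher in red (median 0.28). With the replicate block 11 of the 23 were higher in red (median -0.20). By term, 5 of the 6 tested genes of melanosome were lower in red (median -2.46), as were 8 of 8 of melanosome organization (median -3.86) and 4 of 4 of eye pigmentation (median -3.98), against a median of -0.02 over all genes tested. Melanocyte differentiation, the formation of pigment cells from their precursors, ran the other way, with 9 of 10 tested genes higher in red (median 1.03), as were 2 of 2 of pigment granule dispersal (median 1.38). For these 2 terms the replicate block gave 9 of 10 and 1 of 2. In RS against WS, 12 were tested and 10 had a positive log2 difference (median 2.52, against -0.02 over all genes tested), among them 8 of 8 of melanocyte differentiation, whereas DN158633 was 1 of the 2 with a negative one. Genes near 0 in 1 color pass the count filter only through the other color, which fixes their sign, so nothing is read from these shares. The quasi-likelihood test called no gene at all in any of the 3 comparisons, so nothing is read from the lack of calls in these terms.

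The genes most like DN160804 were named by Pearson's r of log2(CPM + 1) over the 9 libraries, of which those with the same number deviated together, among 78847 other genes. TRINITY_DN157506_c0_g2 was closest (r = 0.98), with FPKM of 0.25, 2.08 and 0.82 in BS and 1.75 in RS2. It held only 3 counts in BS1, and in white skin its FPKM was 0.17 in WS2 (4.23 counts) and 0.16 in WS3. TRINITY_GG_93899_c30_g1, listed under pigment terms, came next (r = 0.98), with 0.20, 26.48 and 1.66 in BS and 5.75 in RS2. TRINITY_GG_163435_c1_g1 ranked 4 (r = 0.97). An r of at least 0.9 was found for 90 genes (0.114%), and DN160804 itself was at or near 0 in 5 of the 9 libraries behind each r.

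For DN158633 the closest were TRINITY_GG_165899_c2_g1 (r = 0.99) and TRINITY_GG_94775_c1_g1 (r = 0.98), with at most 1.07 and 3.20 FPKM and at 0 in all 3 libraries of number 3. Of the genes under pigment terms, TRINITY_DN162538_c5_g1, taken here as Tyrp1, was the most like DN158633 (r = 0.74), at rank 1911 of all genes. TRINITY_GG_163435_c1_g1 followed (r = 0.69). An r of at least 0.9 was found for 83 genes (0.105%). DN160804 and DN158633 had an r of 0.63 with each other, and DN158633 ranked 7335 among the genes most like DN160804, while DN160804 ranked 4762 among those most like DN158633.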

How the data were processed

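Clean reads had been aligned by the authors to the common carp genome with TopHat2 (2.0.10 in the submitters' processing notes). Transcripts were assembled with Trinity and merged with CD-HIT, and each assembled gene was quantified with RSEM (1.2.21 in those notes). The deposited expected counts are RSEM estimates, neither whole nor normalized. The deposited FPKM and TPM values are scaled by effective length and depth, and TPM was only read as a check. For the tests, expected counts were rounded, filtered by filterByExpr (minimum count 10), normalized by TMM and compared between 2 colors at a time by edgeR's quasi-likelihood test (edgeR 4.0.16, R 4.3.3), without a block, with Benjamini-Hochberg adjustment over all genes tested. The thresholds (FDR 0.05, absolute log2 fold change 1) are those of the study. The SE given with edgeR log2 differences is the absolute difference divided by the square root of the test's F statistic, an approximation. Within-number ratios, exact permutation tests and correlations were computed with scipy 1.17.1, numpy 2.4.6 and pandas 2.3.3 under Python 3.11.15, and figures were drawn with matplotlib 3.10.9.

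Groups and numbers came from the sample labels. The labels describe 3 fish with all colors on each. Deviations from the color means correlated between libraries of the same number in all 9 pairs (r = 0.554 to 0.819) and not between different numbers (-0.621 to 0.037), and the numbers were therefore taken to pair the libraries.

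The members and the gene lists were chosen with earlier results of these data known. The genes named are both members, the genes sharing the 3 pigment terms of DN160804, the tyrosinase genes and the Tyrp1 genes. Named as well, for each member, are the 2 most correlated genes overall and the 2 most correlated under the 8 pigment terms. The other gene of the read cluster was added because of its shared identifier, and its sum with DN158633 was chosen after seeing the data. The alternatives were a replicate block, DESeq2 (1.42.0), edgeR's exact test, RLE size factors, no filter, all libraries in 1 fit, limma-trend (limma 3.58.1) on log2(FPKM + 1) and log2(FPKM + 0.1), and leaving out libraries. Scripts were tested on simulated data. With 200 genes changed by 3 on the log2 scale at a dispersion of 0.1, the main test recovered 200 of 200 among 71532 genes for RS against WS, with 10 false calls. The simulated libraries had no differences between numbers, unlike the measured ones. This recovery therefore checks the scripts and does not measure the power of the test in these data. Of the refseq genes supplied for name matching, 0 matched a member identifier, and no sequence of either gene is shown.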

Additional observations from a re-analysis of the deposited data

How the results depend on the processing

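The number of genes called was 0 in all 3 comparisons under the main test, the replicate block, RLE size factors, all libraries in 1 fit, limma-trend and each left-out library or number. DESeq2 called 57 genes for RS against WS, 33 for RS against BS and 43 for BS against WS, and the exact test of edgeR 49, 21 and 43. The test without the count filter called 346 of 279939, 355 of 285309 and 389 of 290342 genes. The replicate block changed no call. With it the log2 difference of DN160804 was -4.36 (SE 0.65) in RS against BS and 13.51 (SE 0.75) in BS against WS. These SEs do not show how well the fold is known, since DN160804 was at or near 0 in white skin and in red numbers 1 and 3. The log2 difference of DN158633 with the block was -0.25 (SE 0.30) for RS against WS, -1.05 (SE 0.33) for RS against BS and 0.80 (SE 0.30) for BS against WS.

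Black skin chose both genes, so their values in its comparisons are descriptions and no call is read from them. DN160804 in RS against BS was at -3.63 without the filter and ranged from -12.92 to 0.74 when libraries were left out, with the reversal on leaving out BS2. By limma-trend it was at -1.84 on log2(FPKM + 1) and -3.71 on log2(FPKM + 0.1). In BS against WS, DN160804 was at 13.20 in the exact test and 13.11 without the filter, and ranged from 8.62 to 13.96 when libraries were left out. By limma-trend it was only 3.10 on log2(FPKM + 1) and 6.01 on log2(FPKM + 0.1). These fitted sizes depend on the prior count or on the value added to FPKM, since white skin was at or near 0. DN158633 reversed in RS against WS when summed with the other gene of its cluster (0.26), and in mean FPKM without number 1 (0.895, the range being -2.41 to 0.895). With libraries left out its log2 difference ranged from -0.65 to -0.02 for RS against WS, from -1.64 to -0.85 for RS against BS and from 0.59 to 1.38 for BS against WS. The mean FPKM difference of DN160804 in RS against WS ranged from 0 to 6.475. The cause of these changes was not tested.

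DN160804 was not run in RS against WS under the filter, and DESeq2 gave it no p in the other comparisons. Leaving a color with 2 libraries assumes that they vary like the rest. Counts of DN160804 in numbers 1 and 3 of red and in white skin were too few to show a difference at this depth.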
